A study of Mus musculus with 3 samples.

Results

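The genes described here are 10 components of vascular endothelial growth factor (VEGF) and angiopoietin signalling, 5 ligands (Vegfa, Vegfb, Vegfc, Pgf and Angpt2) and 5 receptors (Flt1, Kdr, Flt4, Tek and Tie1). They were chosen by name, and their values come from all probesets that the platform annotation assigns to exactly 1 of them, by its current or a former symbol. All 10 were found, with 255 of the 318760 probesets that carry a single gene name, and they are 10 of the 18865 genes with at least 4 such probesets. The study profiled RNA from green fluorescent cells of C57BL/6 bone marrow, in mice whose GFP is under control of the nestin promoter. Such reporter mice have been used to find perivascular stromal cells in marrow. The cells were sorted fresh by flow cytometry and profiled on 3 Affymetrix exon-level arrays, numbered 1 to 3 as in the sample titles. The arrays form a single group, without a control, a treatment or a GFP-negative fraction among the samples used here. The reporter reports activity of a transgenic promoter, not of a cell type, and the labels used here give neither the age and number of the mice nor whether the samples came from separate animals. The spread behind each p-value is therefore that among 3 arrays, and it may be technical.

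VEGF ligands are secreted proteins that bind receptor tyrosine kinases on endothelial cells and drive the growth and permeability of blood vessels. VEGF-A acts mainly through the receptor encoded by Kdr, while the receptor encoded by Flt1 binds VEGF-A, VEGF-B and placental growth factor with little signalling and can act as a decoy, and VEGF-C acts through the receptor encoded by Flt4. Angiopoietins bind Tie2, the product of Tek, which stabilises vessels when angiopoietin-1 is bound, and angiopoietin-2 opposes this in many settings. Tie1 is a related receptor that modulates Tie2. In marrow, the receptors are typical of the sinusoidal and arterial endothelium, and the ligands can come from stromal, bone and blood cells.

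Deposited values are log2 expression values after RMA. The value of a gene on an array is the median of its probesets, and 1 unit is a factor of 2. A gene was called when it lay above the chemosensory background, which is the 95th percentile of 355 olfactory, vomeronasal and bitter taste receptor genes on the same array, at 5.40, 5.66 and 5.64 for arrays 1, 2 and 3. The test was limma's one-sided test of the mean difference to that threshold, with Benjamini-Hochberg adjustment over all 18865 genes and a call below 0.05. Array 2 stood apart from the others in endothelial genes. Of 19 measured endothelial markers 16 were lowest there, as were 34.0% of all genes. The linear levels of these markers summed to 3561, 1242 and 4415 on arrays 1, 2 and 3. Markers of perivascular stroma did not share this difference, with summed linear levels of 21900, 22350 and 20370. Of these stromal markers 12 of 12 were called, next to 50.6% of all genes. Results that rest on array 2 are given with and without it. Nes itself, the gene whose promoter drives the reporter, had 5.97, 5.21 and 5.56 (adjusted p = 0.757, limma).

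All 5 ligand genes gave a signal above background, and so did 3 of the 5 receptor genes, where 50.6% of all genes were called. No ligand lay below the threshold on any array. On array 2, 3 receptors (Kdr, Flt4 and Tek) lay below it, while on arrays 1 and 3 none did. Probes differ in affinity, so no gene's level is set against another's.

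Vegfa, the main inducer of vessel growth, had 9.07, 8.51 and 8.17 on arrays 1, 2 and 3. Its mean was 8.58 ± 0.45 (SD, n = 3), which is 3.02 ± 0.24 (SE) above the threshold, with an adjusted p of 7.69e-06 (limma). Array 1 was the highest and array 3 the lowest, and all 3 values were far above the threshold. Vegfb, which encodes a ligand of the Flt1 product, had 7.68, 7.73 and 7.31 on the 3 arrays. The 3 arrays were close for this gene, whose mean was 7.57 ± 0.23 (SD, n = 3) with an adjusted p of 2.40e-05 (limma). Vegfc, the ligand gene of the lymphatic receptor, had 10.58, 10.49 and 10.02. Its margin over the threshold was 4.80 ± 0.21 (SE), and its call (adjusted p = 4.565e-07, limma) was kept in all 12 alternative analyses, the only one of the 10 genes for which this held.

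Pgf, which encodes placental growth factor, had 8.38, 6.88 and 7.34 on the 3 arrays. It was the one ligand that was lowest on array 2, and its range of 1.48 exceeded that of 94.9% of all genes. The mean of Pgf was 7.53 ± 0.77 (SD, n = 3), with an adjusted p of 0.000425 (limma). Angpt2, the gene of angiopoietin-2, had 8.61, 9.16 and 7.80, so that array 2 was the highest and array 3 the lowest. Its mean was 8.52 ± 0.68 (SD, n = 3), with an adjusted p of 1.489e-05 (limma). Angpt2 and Pgf thus had the widest ranges among the ligands and differed in opposite directions on array 2.

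**Figure D1:**
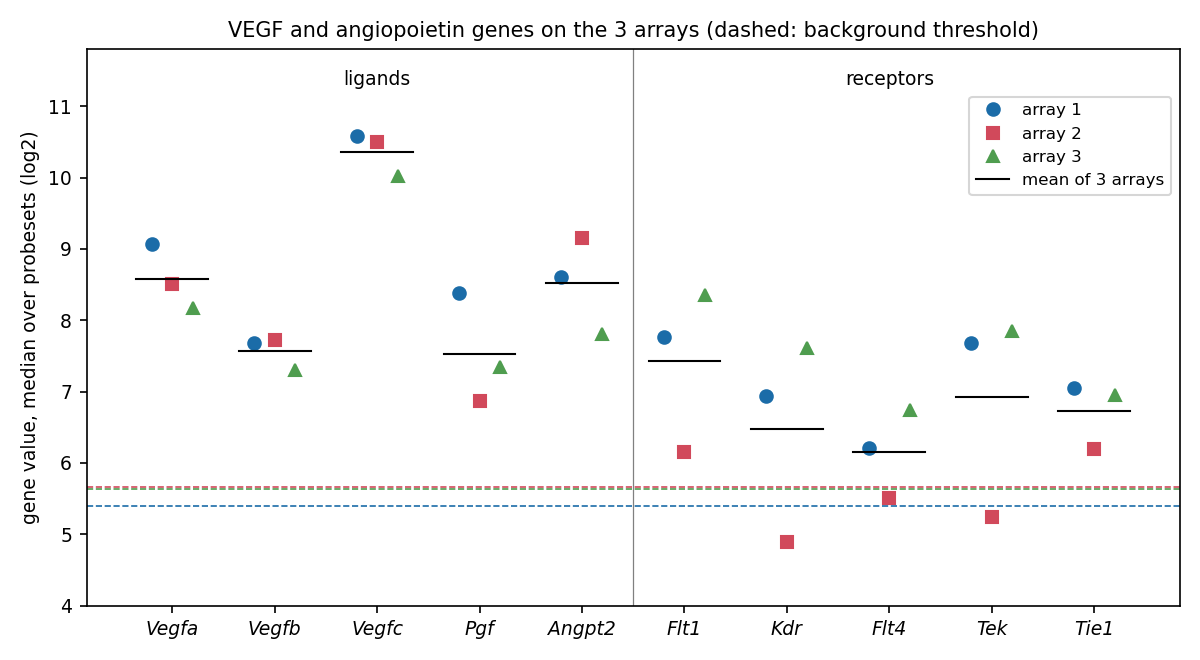
Gene values (log2, median over probesets) of the 5 ligands (left) and 5 receptors (right) on the 3 arrays; points are single arrays, black lines their mean, and dashed lines the background threshold of each array in its colour. Every receptor is lowest on array 2, where Kdr, Flt4 and Tek lie below the threshold, while 4 of the 5 ligands are lowest on array 3.

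All 5 receptor genes were lowest on array 2. Their median range over the arrays was 2.23 and that of the ligands 0.83, although Tie1 (0.84) and Flt4 (1.28) had narrower ranges than Pgf (1.48) and Angpt2 (1.31). In these bulk sorts, fewer cells of a type and less RNA per cell cannot be told apart. Flt1 had 7.77, 6.16 and 8.35, and lay above the threshold on each array. The mean of Flt1 was 7.43 ± 1.13 (SD, n = 3), with an adjusted p of 0.00177 (limma). This call held when any array was left out, with adjusted p up to 0.0458 without array 1. Kdr, the main VEGF-A receptor gene, had 6.94, 4.89 and 7.61. Array 2 was 2.04 below array 1 and 2.71 below array 3, which are 4.12-fold and 6.55-fold differences.

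Kdr did not pass the test, with a mean of 6.48 ± 1.41 (SD, n = 3) and an adjusted p of 0.0776 (limma). Without array 2 it was called (adjusted p = 2.555e-08, limma, and up to 1 over the 12 alternatives), in a fit with 2 arrays where limma gave all genes a common variance. Every adjusted p without array 2 given below comes from that same fit. A missed call is no evidence of absence.

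Flt4, the receptor gene for VEGF-C, which is typical of lymphatic vessels and is also found in marrow sinusoids, had 6.22, 5.51 and 6.74. Its mean of 6.15 ± 0.62 (SD, n = 3) just missed the threshold for a call, with an adjusted p of 0.0519 (limma). It was called in 4 of 12 alternatives, and its adjusted p ranged from 0.00233 without array 2 to 1. Lymphatic endothelial markers gave 0 of 4 calls by limma, next to 50.6% of all genes, and 0 at an unadjusted p below 0.05. Of these, Prox1, the transcription factor gene that specifies lymphatic endothelium, had 4.10, 4.53 and 4.51, below the threshold on every array.

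Tek, the angiopoietin receptor gene, had 7.68, 5.24 and 7.84 on the 3 arrays. Arrays 1 and 3 were close together and array 2 lay 2.44 below array 1 and 2.60 below array 3. Tek was called, with a mean of 6.92 ± 1.46 (SD, n = 3) and an adjusted p of 0.0225 (limma), but the call did not hold without array 1 (adjusted p = 0.221, limma) or without array 3 (0.0684). Over the 12 alternatives it was called in 6, with adjusted p from 9.256e-13 without array 2 to 1. The lowest of these came from the fit with a common variance for all genes. Tie1 had 7.05, 6.19 and 6.95, the narrowest range of the receptors at 0.84. Its mean was 6.73 ± 0.47 (SD, n = 3) and its adjusted p was 0.00179 (limma).

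Promoter sequences of the 3 receptors with the widest range over the arrays are shown because these genes differed together on array 2. Each runs from 250 bases before to 50 bases after an annotated start, on the gene's strand, and was taken from RefSeq for GRCm38.p6. The window of Flt1 is chr5:147725962-147726261 (minus strand), that of Kdr is chr5:75978406-75978705 (minus strand) and that of Tek is chr4:94739039-94739338 (plus strand). Capitals mark matches on either strand to AGGAAG or CCGGAA, forms of the ETS family motif, or to ACGTG or GCGTG, the core of the hypoxia response element.
Flt1: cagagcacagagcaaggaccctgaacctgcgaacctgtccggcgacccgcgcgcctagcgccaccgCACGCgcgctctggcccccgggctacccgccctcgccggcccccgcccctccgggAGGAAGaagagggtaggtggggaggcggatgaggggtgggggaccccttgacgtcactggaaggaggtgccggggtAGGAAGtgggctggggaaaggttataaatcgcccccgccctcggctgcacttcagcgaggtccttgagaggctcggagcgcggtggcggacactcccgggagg
Kdr: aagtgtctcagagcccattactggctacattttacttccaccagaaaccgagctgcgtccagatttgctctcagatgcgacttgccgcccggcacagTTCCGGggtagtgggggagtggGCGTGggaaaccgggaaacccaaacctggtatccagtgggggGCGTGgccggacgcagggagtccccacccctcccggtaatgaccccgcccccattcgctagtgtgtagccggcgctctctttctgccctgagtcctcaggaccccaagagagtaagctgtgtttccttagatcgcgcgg
Tek: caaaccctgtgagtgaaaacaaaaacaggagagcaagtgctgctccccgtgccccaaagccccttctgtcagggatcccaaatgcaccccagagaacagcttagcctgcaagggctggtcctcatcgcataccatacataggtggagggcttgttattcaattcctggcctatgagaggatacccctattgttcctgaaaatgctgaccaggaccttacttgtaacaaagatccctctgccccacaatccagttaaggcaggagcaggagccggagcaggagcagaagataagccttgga
The windows of Flt1 and Kdr each held 3 matches and that of Tek none. Flt1 had AGGAAG in 2 places and GCGTG on the other strand, and Kdr had CCGGAA on the other strand and GCGTG in 2 places. In the remaining receptors, Tie1 had AGGAAG in 2 places and Flt4 had no match. Among ligands, Vegfa held ACGTG and GCGTG only in the window of its downstream annotated start (chr17:46025114-46025413, minus strand). The window of its upstream start (chr17:46032328-46032627) held no match. Vegfb held GCGTG in 2 places, 1 of the 2 windows of Pgf held GCGTG once, and Vegfc had no match. Entries were matched for 9 of the 10 genes, all but Angpt2. Of all 32851 promoter windows of this length 45.2% held one of the ETS forms and 43.8% one of the hypoxia forms. ACGTG overlaps its own complement in CACGTG, no matches overlapped in these windows, and a match describes the letters alone.

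Ligands and receptors were then contrasted by their deviations between arrays, since a deviation compares each gene only with itself. A gene's deviation is its value on an array minus its mean over the 3 arrays, after removing the median deviation of all genes on that array (0.03, 0.01 and -0.04). The receptor medians were 0.32, -1.27 and 0.96 for arrays 1, 2 and 3. The ligand medians were 0.19, 0.12 and -0.31. The receptor median was thus 1.27 above the ligand median on array 3, 0.12 above on array 1, and differed by -1.39 on array 2. With array 2 left out, the same difference was -0.66 on array 1 and 0.66 on array 3, so its sign on array 1 rests on array 2. These values are 1 result with opposite signs, since 2 deviations from a gene's mean mirror each other.

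On array 3 the 2 classes did not overlap. Receptor deviations there ran from 0.26 to 1.16, and ligand deviations from -0.68 to -0.15. Deviations are taken from each gene's own mean, so a low value on array 2 raises those on arrays 1 and 3. How often other sets of 5 genes separate in this way was not counted. On array 2 receptors ran from -1.69 to -0.55 and ligands from -0.66 to 0.63, an overlap that comes from Pgf, while on array 1 the classes overlapped widely. All 5 receptors were lowest on array 2, where 34.0% of all genes and 36.1% of called genes were. Of the ligands 4 of 5 were lowest on array 3, compared with 31.7% of all genes and 31.2% of called genes, and none was lowest on array 1, compared with 34.2% and 32.6%. A range over 1 was seen in 4 of 5 receptors and 2 of 5 ligands, compared with 15.6% of all genes and 17.3% of called genes. The called receptors Flt1 and Tek were both lowest on array 2 and had a range over 1, as did 7.03% of called genes. The median range of all genes was 0.51. The range of Kdr exceeded that of 99.7% of all genes and that of Tek 99.6%, while Vegfb exceeded 35.1%. With 3 arrays of a single group there is no test of this contrast.

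**Figure D2:**
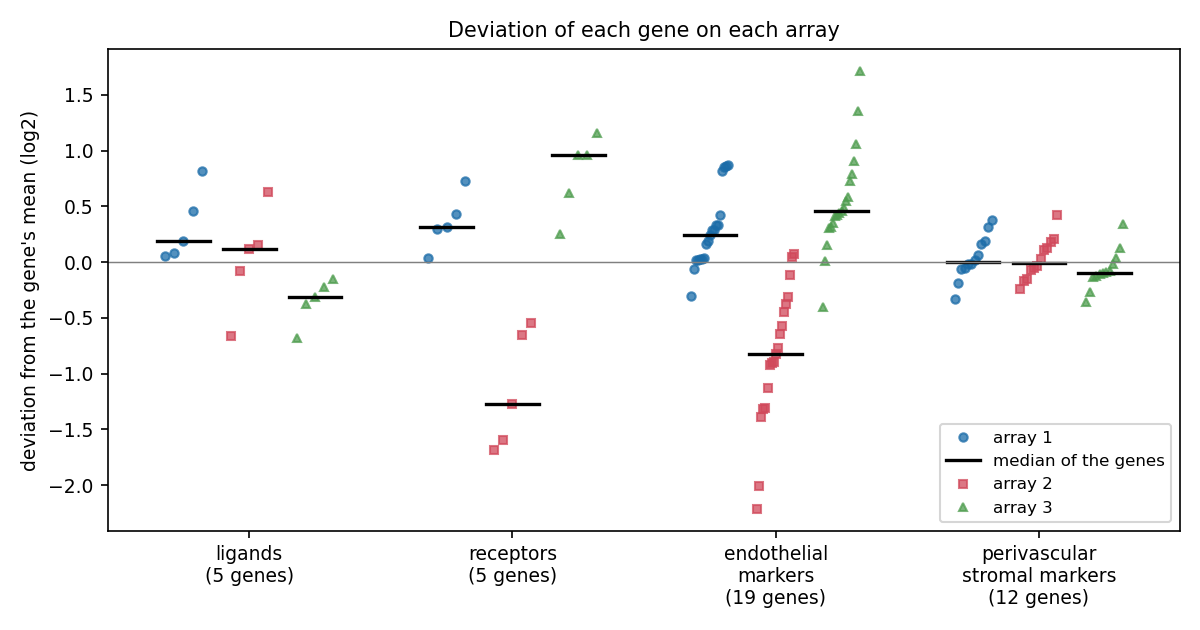
Deviation (log2) of each gene from its mean over the 3 arrays, after removing the median of all genes, for ligands, receptors, endothelial markers and perivascular stromal markers; points are genes and black lines the median of the genes. Receptors and endothelial markers sit low on array 2 (medians -1.27 and -0.83), while ligands and stromal markers do not (0.12 and -0.01).

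Endothelial markers, a list that leaves out the 10 genes, moved with the receptors. Of the 19 measured, 15 were called, next to 50.6% of all genes. The medians of their deviations were 0.24, -0.83 and 0.46 for arrays 1, 2 and 3. Cdh5, which encodes VE-cadherin of endothelial junctions, had 9.14, 6.05 and 9.58 on the 3 arrays. The glycoprotein gene Emcn, which marks venous and sinusoidal vessels, had 8.50, 6.75 and 9.16, and the adhesion gene Pecam1 had 8.92, 6.73 and 8.46. The markers not lowest on array 2 were Sox7, an endothelial transcription factor gene that was not called, with 5.36, 5.07 and 4.56, and Vwf and Icam2, which were lowest on array 1. No endothelial marker was listed at 0, and the values of the list ran from 5.36 to 9.14 on array 1, from 5.07 to 6.75 on array 2 and from 4.56 to 9.58 on array 3. Without array 1 the list gave 8 calls, and without array 2 it gave 16. It gave 12 with the 75th percentile over probesets and 6 with genes of at least 1 probeset. With the 99th percentile of the background genes it gave 0. The part of endothelial RNA in the receptor values was not tested.

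Perivascular stromal markers varied less, and their median deviations were 0.00, -0.01 and -0.09 on the 3 arrays. All 12 were called, next to 50.6% of all genes. The 3 with the largest margins were Cxcl12 (11.77, 11.89 and 11.61), Cdh11 (11.60, 11.82 and 11.47) and Adipoq (11.69, 11.63 and 11.47). None of the 12 had a range over 1. Among blood lists, monocyte and macrophage markers gave 3 of 8 calls, next to 50.6% of all genes. Their summed linear level was 612, 368 and 1085, in which Mrc1 was the largest value on arrays 1 and 3. The median deviations of the list were -0.01, -0.002 and 0.22. The mannose receptor gene Mrc1, which is expressed in macrophages and also in sinusoidal endothelium, had 8.39, 4.44 and 9.15 and was just called (adjusted p = 0.0498, limma). Its call was lost in 8 of 12 alternatives, with adjusted p from 3.111e-25 without array 2 to 1. The lysozyme gene Lyz2 had 5.93, 6.72 and 8.03 (adjusted p = 0.00445, limma) and the complement gene C1qb had 6.03, 6.56 and 6.74 (adjusted p = 0.00225, limma), so that both were lowest on array 1. The uncalled gene with the lowest margin was Ms4a7, with 4.34, 4.12 and 3.64.

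At the level of single probesets, the receptor pattern was broad in Kdr and Tek and partial in Flt1, Flt4 and Tie1. Of the 179 receptor probesets 137 were lowest on array 2, compared with 33.6% of all named probesets. In Tek it was 29 of 31 and in Kdr 32 of 35, whereas it was 27 of 36 in Flt4, 29 of 43 in Flt1 and 20 of 34 in Tie1. The value on array 2 was more than 1 unit below both other arrays in 87 of 179 receptor probesets, compared with 5.8% of all named probesets. This count was 24 in Tek, 24 in Kdr, 20 in Flt1, 10 in Tie1 and 9 in Flt4. On array 3 it was 0 of 179, where the share of all named probesets was 3.31%.

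Ligand probesets had another order. Of 76, 44 were lowest on array 3, 23 on array 2 and 9 on array 1, where shares among all named probesets were 33.6%, 33.6% and 32.7%. Angpt2 had 13 of 16 lowest on array 3 and Vegfc 7 of 11, while Pgf had 6 of 10 lowest on array 2. By more than 1 unit, 4 ligand probesets were lowest on array 2 and 9 on array 3, where the shares among all named probesets were 5.8% and 3.31%. Probesets of a gene share their RNA and are not replicates.

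The spread among the probesets of a gene was wide. Means over the arrays ran from 5.94 to 11.84 in the 26 probesets of Vegfa and from 4.04 to 9.69 in the 13 of Vegfb. In Vegfc 9 of 11 probesets lay above the 95th percentile of chemosensory probesets on all 3 arrays, in Angpt2 12 of 16, in Vegfa 17 of 26, in Vegfb 7 of 13 and in Pgf 4 of 10. The receptors had fewer such probesets, namely 9 of 43 in Flt1, 6 of 34 in Tie1, 4 of 36 in Flt4, 3 of 35 in Kdr and 1 of 31 in Tek, where 27.2% of all named probesets passed. A probeset below the threshold on array 2 alone cannot pass this count. The single Tek probeset that passed had 9.89, 8.10 and 10.47, and was itself lowest on array 2.

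**Figure D3:**
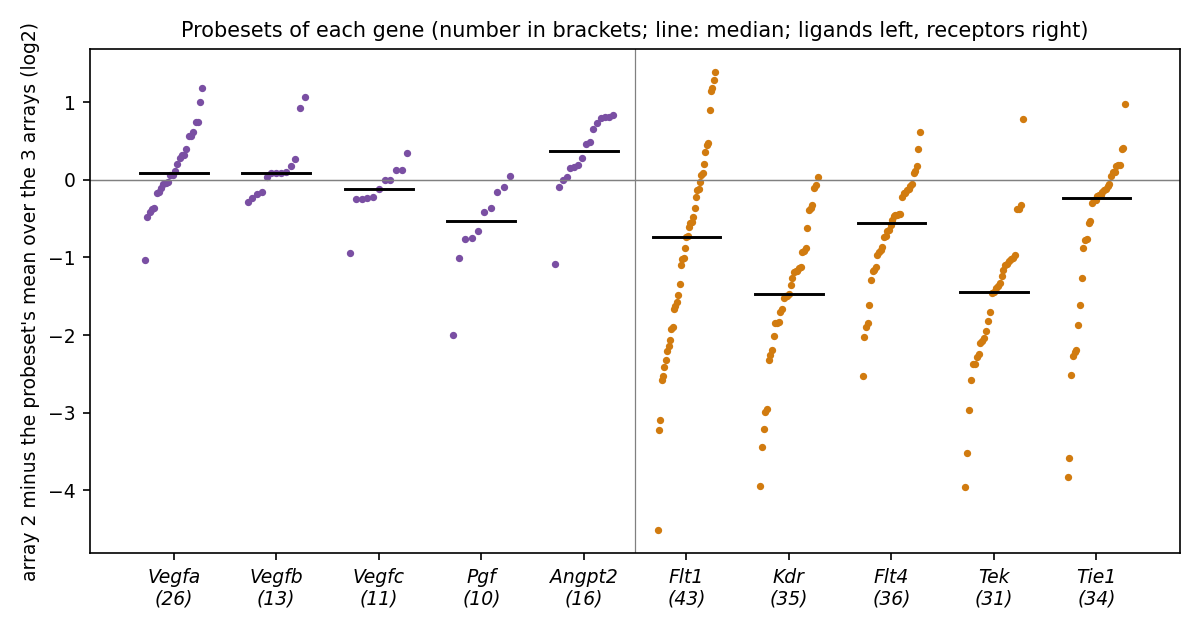
Value on array 2 minus the mean over the 3 arrays (log2) for every probeset of the 10 genes, sorted within a gene; the number of probesets is in brackets and black lines are medians. The medians are -1.46 in Kdr and -1.44 in Tek, compared with 0.09 in Vegfa and 0.38 in Angpt2, and Flt1 spans from -4.52 to 1.39.

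Some probesets of Flt1 differed in opposite directions between arrays 1 and 2. Its 20 probesets that were more than 1 unit lower on array 2 had medians of 8.79 on array 1, 5.68 on array 2 and 8.36 on array 3. Another 5 probesets were more than 1 unit lower on array 1 than on both other arrays, with medians of 6.73, 9.73 and 9.16. The largest of these values came from 1 probeset with 7.46, 11.05 and 10.47. Among all named probesets 4.66% were lower on array 1 by this margin, and among the receptor probesets it was 8 of 179, of which Flt1 had 5 and Kdr, Tek and Tie1 had 1 each. The split was seen in the values first, and no coordinates of these probesets were used, so that the exons or transcripts they measure are not assigned here. The gene value of Flt1 is a median over both kinds of probesets.

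**Figure D4:**
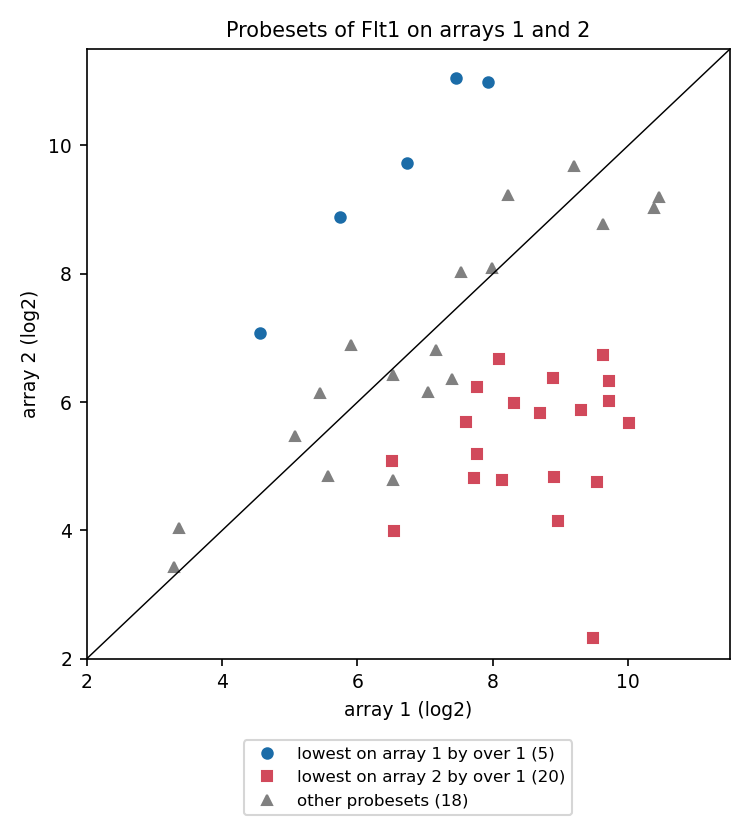
The 43 probesets of Flt1, with log2 values on array 1 (horizontal) and array 2 (vertical); the line marks equal values. The 20 red squares are lowest on array 2 by over 1 unit and lie below the line, and the 5 blue circles are lowest on array 1 by over 1 unit and lie above it.

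Among further ligands, co-receptors and phosphatases of the pathway, 6 of 7 measured genes were called, next to 50.6% of all genes. Angpt1, the activating Tie2 ligand gene, had 11.11, 10.94 and 11.06, one of the smallest spreads in the pathway (SD 0.09, n = 3). Nrp1, a co-receptor gene for VEGF and semaphorins, had 9.96, 9.71 and 9.73, and did not share the low value of the receptors on array 2. Svep1, which encodes a matrix protein that binds Tie1, had 8.72, 8.99 and 8.67, and the ligand gene Angpt4 had 6.54, 6.22 and 6.51. Ptprb, the gene of the endothelial phosphatase that dephosphorylates Tie2, had 8.39, 5.50 and 8.02. This was the pattern of Tek, and 42 of its 49 probesets were lowest on array 2. Ptprb was called (adjusted p = 0.0107, limma), and its call was lost without array 1 (adjusted p = 0.146) within a range of 1.029e-17 to 1 over the 12 alternatives. The phosphatase gene Ptprj, which is not confined to endothelium, had 6.68, 7.01 and 7.23. The lymphatic growth factor gene Vegfd had 5.33, 4.83 and 7.21 and was not called (adjusted p = 0.485, limma). It passed without array 2 (adjusted p = 0.0165, limma, and up to 1 over the 12 alternatives), in the fit with a common variance for all genes. Its value on array 1 lay below that array's threshold of 5.40, so this pass rests on array 3. Nrp2 had 1 probeset and was not measured.

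Genes that sense oxygen, which control Vegfa transcription, were called in 5 of 9 cases and hypoxia target genes in 7 of 10, next to the 50.6% of all genes. Epas1, which encodes HIF-2 alpha, had 10.64, 10.77 and 10.38, Hif1a had 9.05, 8.48 and 8.73, and their partner gene Arnt had 8.03, 7.94 and 8.14. Egln3, a prolyl hydroxylase gene induced by hypoxia, was below the threshold with 4.80, 4.99 and 5.12. Among targets, the glycolytic gene Ldha had 8.25, 8.36 and 8.25, the stress gene Ndrg1 had 7.66, 7.07 and 7.63, and the mitophagy gene Bnip3 had 6.41, 7.83 and 7.62. Pdk1, a mitochondrial kinase gene, was not called, with 4.90, 4.75 and 5.48. The median deviations of the hypoxia targets were -0.07, 0.05 and 0.20, and the deviations of Vegfa were 0.46, -0.08 and -0.37. Single targets differed from their median, and a link between these genes and Vegfa was not tested.

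Genes that act downstream of the receptors in many cell types were called in 13 of 18 cases, next to 50.6% of all genes. The phosphoinositide kinase subunit gene Pik3r1 had 9.08, 9.59 and 9.33, the focal adhesion kinase gene Ptk2 had 8.22, 8.20 and 8.34, and the adaptor gene Shc1 had 7.69, 8.40 and 8.57. The kinase gene Prkcb was not called, with 4.44, 4.38 and 4.94. Their lowest array was 1, 2 and 3 in 6 cases each, unlike the receptors. Of 10 genes known to respond to VEGF in endothelium 6 were called, next to 50.6% of all genes. Their lowest array was 1, 2 and 3 in 2, 6 and 2 cases, where 34.0% of all genes were lowest on array 2. Esm1, which encodes the secreted proteoglycan endocan, had 12.30, 12.18 and 12.12, without the low value on array 2. The protease gene Adamts1 had 10.22, 9.44 and 9.99, and the nuclear receptor gene Nr4a1 had 7.84, 6.96 and 7.39, both lowest on array 2. The urokinase receptor gene Plaur was not called, with 5.20, 5.13 and 5.23.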

How the data were processed

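RNA of 3 sorted samples was amplified with the WT-Ovation Pico system, made into sense-strand product and biotin-labelled, per the labels' protocols. The authors deposited log2 expression values per probeset, made with Affymetrix Expression Console 1.1 and RMA, per the submitters' processing notes. Neither the settings of RMA nor a genome build is stated there. RMA normalises arrays to a common distribution, so a difference between arrays is relative to all probesets.

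Probesets were named by symbol from the platform's annotation, and former symbols were updated through RefSeq synonyms (GRCm38.p6). Of 1256831 probesets 318760 had a single gene name, 6684 several and 931387 none. No named probeset was at 0. Genes needed at least 4 probesets. An intercept-only limma 3.58.1 model (R 4.3.3) was fitted to each gene's value minus the array's threshold. The fit was also run on simulated data with independent noise for each gene, which cannot show how shared differences between arrays affect the calls. The number of arrays limits the precision. No scan date was used.

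Members and lists were chosen with earlier results of these data known. Named are all members, all further ligands, co-receptors and phosphatases, and from the other pathway, endothelial, lymphatic and stromal lists up to 3 called genes with the largest margins and the uncalled gene with the lowest. The monocyte and macrophage list is named by the same rule, and the remaining marker lists are given as counts. Other genes named beside a count (Vwf, Icam2, Abcc9, Rgs5, Ppbp) were chosen after their values were seen. Alternatives changed the probeset summary, background, filter, normalization, variance model or left out an array.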

Additional observations from a re-analysis of the deposited data

How the results depend on the processing

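No paired analysis was possible because the 3 arrays form 1 group. With the mean over probesets, 5 receptors were called in place of 3. With the 75th percentile over probesets and with genes of at least 1 probeset, 2 receptors were called. Tek lost its call in both settings (adjusted p = 0.128 and 0.2157, limma). With the 99th percentile of the background genes, 3797 genes were called in place of 9548, 4 members in place of 8 (0 receptors in limma's test, and 0 with an unadjusted p under 0.05) and 42 genes of the other lists in place of 98. There the margins of Tie1 (-0.059) and Angpt4 (-0.37) turned negative. With 31 keratin-associated and beta-defensin genes as background, the thresholds were 8.22, 8.38 and 8.53, and 736 genes, 1 member (the ligand Vegfc), 0 receptors (limma, 0 with an unadjusted p under 0.05) and 19 genes of the other lists were called. Margins that turned negative there were those of Vegfb (-0.81), Pgf (-0.85), Flt1 (-0.95), Tek (-1.46), Tie1 (-1.64), Angpt4 (-1.96), Ptprb (-1.07), Ptprj (-1.41), Arnt (-0.34), Bnip3 (-1.09), Ldha (-0.0915), Ndrg1 (-0.93), Ptk2 (-0.12), Shc1 (-0.16), Nr4a1 (-0.98), Cdh5 (-0.12), Emcn (-0.24), Pecam1 (-0.34) and Mrc1 (-1.05). Both backgrounds have higher thresholds on every array. With genes of at least 1 probeset, 65 genes of the other lists were called.

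Leaving out 1 array at a time gave 8559 to 9158 genes, 7 to 10 members, 5 ligands each time, 2 to 5 receptors and 79 to 100 genes of the other lists. The 5 receptors were called without array 2 only. The difference between receptor and ligand medians was then -0.66 to 0.76 on array 1, -1.30 to -0.76 on array 2 and 0.66 to 1.30 on array 3, and its sign on array 1 turned without array 2. All 5 receptors were lowest on array 2 in every setting that kept that array and recomputed deviations, and 3 to 5 ligands were lowest on array 3. A background of chemosensory genes without pseudogenes and older symbols, added after the data were seen, called Flt4 as well, with 4 receptors and 9774 genes. Leaving out probesets at 0 changed nothing, since none was named.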

Other observations

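Genes whose 3 deviations lay closest to the receptor median were sought among the 9540 other called genes, by the root mean square difference over the 3 arrays. The nearest were Trim21 (0.05), which encodes an antibody receptor of the cytosol, Adgrg3 (0.09), Emcn (0.09), Ctnnal1 (0.13) and Vrk1 (0.15). Within a distance of 0.25 there were 24 genes (0.252%) for the receptor profile and 3209 (33.6%) for the ligand profile. The nearest to the ligand median were Clu (0.0025), Snx12 (0.01), Max (0.01), Trip12 (0.01) and Sucla2 (0.01), and with 3 arrays such a likeness says little. Emcn had values of 8.50, 6.75 and 9.16, and Trim21 had 8.09, 6.43 and 8.55.

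Among the remaining marker lists, smooth muscle and pericyte genes were called in 8 of 12 cases, osteoblast genes in 8 of 8 and stem and progenitor genes in 5 of 8. Megakaryocyte genes were called in 2 of 7, neutrophil genes in 5 of 6 and pan-leukocyte genes in 3 of 8, next to 50.6% of all genes. The median deviations of these lists on array 2 lay between -0.31 and 0.04, compared with -1.27 for the VEGF and angiopoietin receptors. Such medians hide single genes in both directions. For example, the pericyte gene Abcc9 had -1.16 and the megakaryocyte gene Ppbp -1.26 there. The pericyte gene Rgs5 had 0.58 on array 2 and -1.26 on array 3. In these 2 lists, 5 of 12 and 3 of 7 genes were lowest on array 2, next to 34.0% of all genes. The neutrophil list had its highest median on array 3, with medians of -0.33, -0.17 and 0.50. Its single genes differed, and 2 of the 6 were lowest on array 2.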
